A study of Mus musculus with 2 samples.

Results

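The genes described here are 10 genes of the NRF2 and glutathione system, chosen by name: Nfe2l2, Keap1, Nqo1, Gclc, Gclm, Txnrd1, Srxn1, Gstt1, Gstm1 and Gsta4. All 10 were found by symbol among the 33696 features of the count matrix. They were followed in 1 single-cell RNA-seq library of KPCY 6419c5, a mouse line of pancreatic ductal adenocarcinoma; the library was a pool of clones 76 and 84 mixed in equal numbers after 19 days of editing. All cells carried BASELINE, a lineage recorder, and had been transfected with Cas12a-ABE, a base editor that changes A to G. Each clone was grown from 1 sorted cell, so that each stands for 1 cell of the parent line, and no unedited or untransfected cells were measured. A second pool, of clones 1, 32, 33, 52 and 76, was not analysed here.

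NRF2, the protein made from Nfe2l2, is a transcription factor that switches on genes for detoxification, glutathione synthesis and repair of oxidised proteins. KEAP1 binds NRF2 and directs its degradation while a cell is unstressed, and reactive molecules that modify KEAP1 let NRF2 build up in the nucleus. There NRF2 pairs with small MAF proteins on a short DNA element called the antioxidant response element. Glutathione, the small thiol peptide that many of these enzymes make or spend, buffers oxidants and is joined to toxic compounds by glutathione S-transferases.

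The 10 genes cover the main steps of that system. Nfe2l2 (ENSMUSG00000015839) and Keap1 (ENSMUSG00000003308) are the regulators. Gclc (ENSMUSG00000032350) and Gclm (ENSMUSG00000028124) encode the catalytic and the modifier subunit of glutamate-cysteine ligase, the rate-limiting enzyme of glutathione synthesis. Nqo1 (ENSMUSG00000003849) encodes a quinone reductase, Txnrd1 (ENSMUSG00000020250) the cytosolic thioredoxin reductase, and Srxn1 (ENSMUSG00000032802) sulfiredoxin, which restores overoxidised peroxiredoxins. Gstt1 (ENSMUSG00000001663), Gstm1 (ENSMUSG00000058135) and Gsta4 (ENSMUSG00000032348) encode glutathione S-transferases of the theta, mu and alpha classes, and GSTA4 is known for clearing products of lipid peroxidation.

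The promoters of 4 of these genes are shown because they contrast a pair that differed strongly between the cell groups described below, Gstt1 and Gstm1, with a pair that did not, Gclm and Txnrd1. The sequences are the 250 bases before the transcription start in RefSeq's promoter table for GRCm38.p6, written 5′ to 3′ on the gene's own strand; counts were made on another build, GRCm39. Capitals mark matches to the core of the antioxidant response element, TGACNNNGC, searched on both strands.
Gstt1, chr10:75797732-75797981, minus strand: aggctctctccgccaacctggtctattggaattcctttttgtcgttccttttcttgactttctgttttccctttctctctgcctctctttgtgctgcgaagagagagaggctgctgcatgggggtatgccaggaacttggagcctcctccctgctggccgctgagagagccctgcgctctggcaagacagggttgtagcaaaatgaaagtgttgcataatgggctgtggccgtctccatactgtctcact
Gstm1, chr3:108017974-108018223, minus strand: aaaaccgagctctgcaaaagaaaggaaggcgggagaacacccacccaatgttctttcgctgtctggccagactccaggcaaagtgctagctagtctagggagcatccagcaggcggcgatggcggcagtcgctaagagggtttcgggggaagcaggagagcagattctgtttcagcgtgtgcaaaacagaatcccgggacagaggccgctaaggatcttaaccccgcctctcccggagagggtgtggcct
Gclm, chr3:122245307-122245556, plus strand: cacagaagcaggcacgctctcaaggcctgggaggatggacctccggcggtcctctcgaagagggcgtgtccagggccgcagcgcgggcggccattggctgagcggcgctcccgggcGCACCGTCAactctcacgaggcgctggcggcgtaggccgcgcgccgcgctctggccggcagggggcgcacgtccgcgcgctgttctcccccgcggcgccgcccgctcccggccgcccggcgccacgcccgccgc
Txnrd1, chr10:82858956-82859205, plus strand: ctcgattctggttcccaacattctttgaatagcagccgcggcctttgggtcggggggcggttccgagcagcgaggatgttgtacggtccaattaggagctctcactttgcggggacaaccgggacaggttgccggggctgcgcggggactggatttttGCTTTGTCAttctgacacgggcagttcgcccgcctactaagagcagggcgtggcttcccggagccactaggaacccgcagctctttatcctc
The match in Gclm, GCACCGTCA, lies 134 to 126 bases before the start, and that in Txnrd1, GCTTTGTCA, lies 92 to 84 bases before it, each reading as the motif on the opposite strand. The shown windows of Gstt1 and Gstm1 hold no match, which says only that these letters are not in these windows. The table held 11 windows for 8 of the 10 genes (Gclc and Gsta4 are named only), and 3 of the 11 had a match. The third is in Nfe2l2, TGACTCCGC, 240 to 232 bases before the start. The windows of Srxn1, Nqo1 and Keap1 and the other windows of Gstm1 and Txnrd1 had none. Keap1, like Gclm and Txnrd1, differed little between the groups, so the 4 genes shown do not stand for all 8. A link between matches and levels was not tested. Of all 32851 windows, 10.2% held a match, and of the 105 windows of the 6 lists of related genes used below 16.2% did. A match is a string of letters and not a measured binding site.

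The library held 22178 barcodes and 116505698 unique molecular identifiers (UMIs, which count captured RNA molecules). Barcodes under 2000 UMIs, under 1000 detected genes or over 15% mitochondrial UMIs were dropped, which left 21361 cells. No file assigns cells to clones, so cells were grouped by their own RNA. A cells had at least 2 UMIs of Pde10a, Plcb1, Galnt18, Arhgap15 and Ceacam1 together, and at least 3 times the UMIs of the B genes. B cells had at least 2 UMIs of S100a7a, Rgs20, Hs6st2, Ccbe1, Ctse and Mal together, and at least 3 times those of the A genes. This gave 7816 A cells with a median of 4699.5 UMIs and 8936 B cells with a median of 5440.5. The other 4609 cells were neither, and 3966 of them had under 2 UMIs of either set. Whether A and B are the 2 clones cannot be told from the files. The 7 ductal and epithelial markers checked (Krt7, Krt8, Krt18, Krt19, Epcam, Cdh1, Sox9) were all detected in both groups, at 2739 counts per 1000000 UMIs (CPM) together in A cells and 7584 in B cells, while Epcam alone stood at 31.8 CPM in A and 3.16 in B. The fibroblast markers Col1a2, Dcn and Lum, the endothelial marker Kdr and the acinar markers Cpa1 and Amy2a2 were at 0 in both. Other markers of the same lists were seen: the endothelial Egfl7 at 32.6 CPM in A and 7.75 in B, the acinar Prss2 at 10.0 and 4.21 and Cela1 at 3.65 and 0.171, and the fibroblast Col1a1 and Pdgfra and the endothelial Pecam1 under 1 CPM in both. The early stress genes Fos, Jun, Junb, Egr1, Ier2 and Atf3 stood at 194 CPM together in A cells and 398 in B cells, but not all alike. Junb stood at 67.7 CPM in A and 254 in B, Jun at 15.7 and 31.1, and Fos at 3.90 and 23.0. Ier2 went the other way, at 83.9 and 64.3 CPM, and Egr1 (9.19 and 9.63) and Atf3 (13.7 and 15.7) were close. The median mitochondrial share was 3.19% in A and 1.89% in B. The part of these differences in the results below was not tested.

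Because there is 1 library and cells are not replicates, no test was made and no p-value is given. A gene's level in a group is its UMIs summed over the group's cells, as CPM of all UMIs of that group. Intervals are exact 95% intervals that cover counting error alone. A group with fewer cells of a kind and a group with less RNA per cell of that kind cannot be told apart in such sums. A gene was compared by size when its mean level over A and B cells was at least 10 CPM, and a difference of at least 2-fold was counted. A gene that passed only through the group where it is high had to differ, so the counts below are descriptions. Of the 8240 genes that passed, 8.75% (721 genes) were at least 2-fold higher in A cells and 6.2% (511 genes) in B cells. The median log2 ratio of A over B was 0.16 over these genes, so that a typical gene stood slightly higher in A. Centred on that median, the counts were 536 genes higher in A and 638 in B.

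Of the 10 genes, Gstt1, Gstm1 and Gclc were at least 2-fold higher in A cells and none was at least 2-fold higher in B cells. Gsta4 was also higher in A, but by less than 2-fold. The other subunit of glutamate-cysteine ligase, Gclm, and Txnrd1 and Keap1 stood at nearly the same level in both groups. Nfe2l2 was 1.32-fold higher in A. Over all genes compared, 8.75% were that much higher in A. Gstt1 passed the level filter only through its level in A, so nothing is read from the count; Nqo1 and Srxn1 were below the filter and are given as values.

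**Figure D1:**
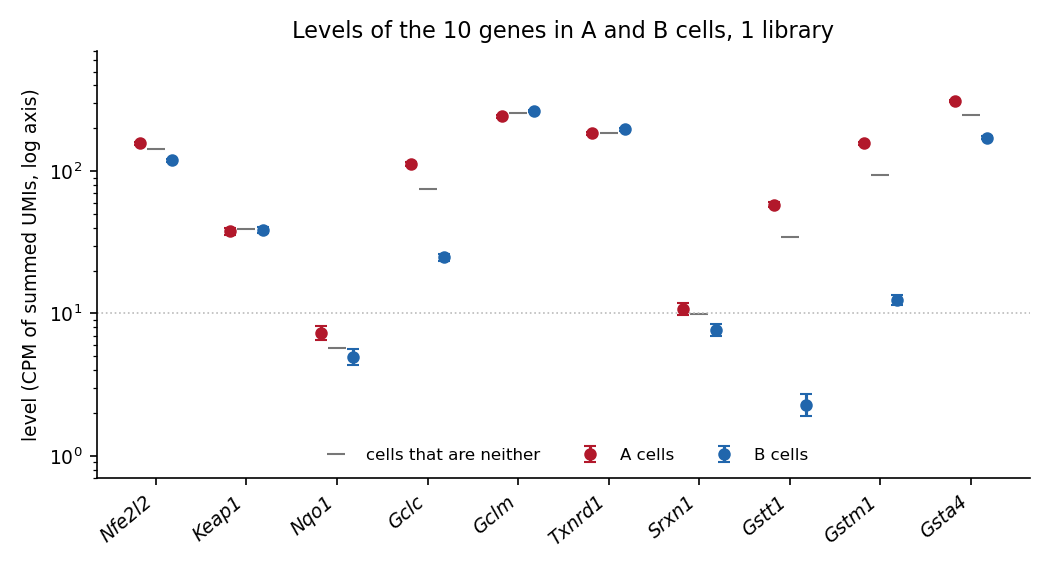
Level of each of the 10 genes (vertical axis, CPM of summed UMIs, log scale) in A cells (red), B cells (blue) and cells that were neither (grey dash), in 1 library; bars are exact 95% Poisson intervals and the dotted line is the 10 CPM filter. Gstt1, Gstm1 and Gclc are the genes whose A and B points are farthest apart, while those of Keap1, Gclm and Txnrd1 nearly coincide.

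Among the regulators, Nfe2l2 stood at 157 CPM in A cells (153 to 161) and at 119 CPM in B cells (116 to 122), a log2 ratio of 0.40 (0.35 to 0.45). Keap1 stood at 37.7 CPM in A (35.8 to 39.7) and 38.5 CPM in B (36.8 to 40.2), a log2 ratio of -0.03 (-0.13 to 0.07). The RNA of the transcription factor was thus a little higher in A, beyond counting error, while the interval for Keap1 spans equality. Of all genes compared, 67.9% had a lower ratio than Nfe2l2 and 35.8% a lower one than Keap1.

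The subunits of glutamate-cysteine ligase went separate ways. Gclc, the catalytic subunit, stood at 112 CPM in A cells (109 to 115) and 24.8 CPM in B cells (23.5 to 26.2), which is 4.51-fold higher in A (4.24 to 4.80). Gclm, the modifier subunit, stood at 242 CPM in A (238 to 247) and 263 CPM in B (258 to 267), a log2 ratio of -0.12 (-0.15 to -0.08). In B cells the catalytic subunit was low while the modifier was as abundant as in A. In the ranking of log2 ratios over the 8240 genes, from highest in A, Gclc was number 164 and Gclm number 5729.

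Txnrd1, Srxn1 and the quinone reductase gene Nqo1 all differed by less than 2-fold. Txnrd1 stood at 184 CPM in A cells (180 to 189) and 196 CPM in B cells (192 to 200), a log2 ratio of -0.09 (-0.13 to -0.04). Srxn1, with 435 UMIs in A and 406 in B, stood at 10.8 CPM (9.81 to 11.9) and 7.69 CPM (6.96 to 8.48). That is 1.40-fold higher in A (1.22 to 1.61). Nqo1, a standard readout of NRF2 activity, was scarce in both groups, with 294 UMIs over all A cells and 262 over all B cells. Its level was 7.30 CPM in A (6.49 to 8.18) and 4.96 CPM in B (4.38 to 5.60), 1.47-fold higher in A (1.24 to 1.74).

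The 3 transferases were all higher in A cells, by very different amounts. Gstt1 stood at 58.0 CPM in A (55.7 to 60.4) and 2.29 CPM in B (1.90 to 2.74), 25.3-fold higher in A (21.1 to 30.6), with 121 UMIs over all B cells. Gstm1 stood at 157 CPM in A (153 to 161) and 12.4 CPM in B (11.5 to 13.4), 12.7-fold higher (11.7 to 13.7). Gsta4 stood at 309 CPM in A (304 to 315) and 171 CPM in B (168 to 175), 1.80-fold higher (1.76 to 1.85). Gstt1 was nearly missing from B cells, Gstm1 was low there and Gsta4 was well detected in both. Gstm1 and Gsta4 belong to families with near-identical copies whose reads can be split or shared, so their levels are uncertain to that extent. The cells that were neither A nor B had values between those of A and B for these 3 genes and for Gclc: 34.3 CPM for Gstt1, 94.0 for Gstm1, 247 for Gsta4 and 75.3 for Gclc.

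The ratio of Gstt1, which rests on few UMIs in B, depended on which B cells were counted. Without the barcodes that the doublet caller Scrublet marked, its level in B was 1.35 CPM and the ratio 43.4-fold (34.1 to 56.0). In B cells of 2000 to under 4000 UMIs it had 4 UMIs, or 1.17 CPM. In those of 4000 to under 6000 it stood at 1.13 CPM, and in those of 6000 or more at 3.46 CPM, where A cells stood 13.2-fold higher. The Gstt1 RNA counted in B cells thus lay mostly in the deepest barcodes. The share of B barcodes marked as doublets was 1.24%, 0.388% and 5.34% in the 3 depth ranges, and Gm5886, a gene abundant in A cells, stood at 17.3, 14.5 and 62.5 CPM in the same B cells. Gstm1 in B stood at 12.0 CPM (8.63 to 16.3), 8.89 CPM (7.72 to 10.2) and 15.5 CPM (14.0 to 17.1), and Gclc at 32.0 CPM (26.2 to 38.6), 23.3 CPM (21.4 to 25.3) and 25.2 CPM (23.3 to 27.2). Gsta4 passed 2-fold in the shallowest range, where it was 2.12-fold higher in A (1.94 to 2.33), and stood at 1.53-fold (1.46 to 1.59) in the deepest.

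Shares of cells with at least 1 UMI gave the same order. Each cell was thinned to 3000 UMIs, which kept 7406 A cells and 8827 B cells and left out 410 A and 109 B cells as too shallow. Gstt1 was found in 14.8% of A cells and 0.510% of B cells (0.372 to 0.682), against 22.8% and 1.23% without thinning. The genes that define A cells, which B cells should lack, were each found in 0.204% to 0.691% of the same B cells. Those genes chose the B cells, so the rule itself holds their shares in B down. Gm5886 and Slc1a3, high in A and outside the rule, stood in B cells at 2.39% and 2.56% of their level in A, and Gstt1 at 3.95%. Gm5886 and Slc1a3 were chosen after their values were seen and had among the lowest such percentages. They need not stand for other genes high in A. Without the marked doublets Gm5886 stood at 1.28% and Gstt1 at 2.30%, with Slc1a3 between them. How much of the Gstt1 RNA in B cells is free RNA or doublets was not tested. Gstm1 was found in 34.9% of A cells (33.8 to 36.0) and 3.07% of B cells (2.72 to 3.45), and in 49.1% and 6.23% unthinned. Gclc was found in 25.7% of A (24.8 to 26.8) and 7.05% of B (6.52 to 7.60), and in 38.3% and 12.9% unthinned. The level of Gstm1 in B was 7.90% of that in A, and that of Gclc 22.2%. Gsta4 was found in 54.1% of A cells and 32.6% of B cells, and in 67.7% and 48.3% unthinned.

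The remaining 6 genes differed less in share. Nfe2l2 was found in 37.0% of thinned A cells and 30.3% of thinned B cells, and Keap1 in 10.7% and 10.5%. Gclm was found in 50.9% of A and 54.3% of B, and Txnrd1 in 42.2% and 43.9%. Srxn1 was found in 3.08% and 2.37%, and Nqo1 in 2.15% (1.83 to 2.50) and 1.48% (1.24 to 1.76). Unthinned, these shares were 52.4% and 48.1% for Nfe2l2, 17.4% and 20.0% for Keap1, 67.2% and 75.4% for Gclm, 58.7% and 65.8% for Txnrd1, 5.35% and 4.48% for Srxn1, and 3.48% and 2.78% for Nqo1. A thinned cell held UMIs of a median of 3 of the 10 genes in A and of 2 in B. None of the 10 was seen in 4.01% of A cells and 10.6% of B cells, and the sum of their UMIs ran from 0 to 23 in A and from 0 to 18 in B.

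The other genes of the system were read through 6 lists with 90 genes, of which 69 passed the level filter. Of these, 17 were at least 2-fold higher in A cells, 5 in B cells and 47 differed by less. Their median log2 ratio was 0.25, beside 0.16 over all genes compared. The 17 of 69 stand beside the 8.75% of all genes, and the 5 of 69 beside 6.2%. Mgst1, Gstm2, Gstt3, Cbr3, Ephx1, Sesn1 and Slc7a11 stood under 10 CPM in B, and Mafk under 10 CPM in A. These genes passed the level filter only through the group where they are high. Nothing is therefore read from the counts, for the lists together or for each list below. Centred on the median of all genes, the counts were 15 and 6.

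**Figure D2:**
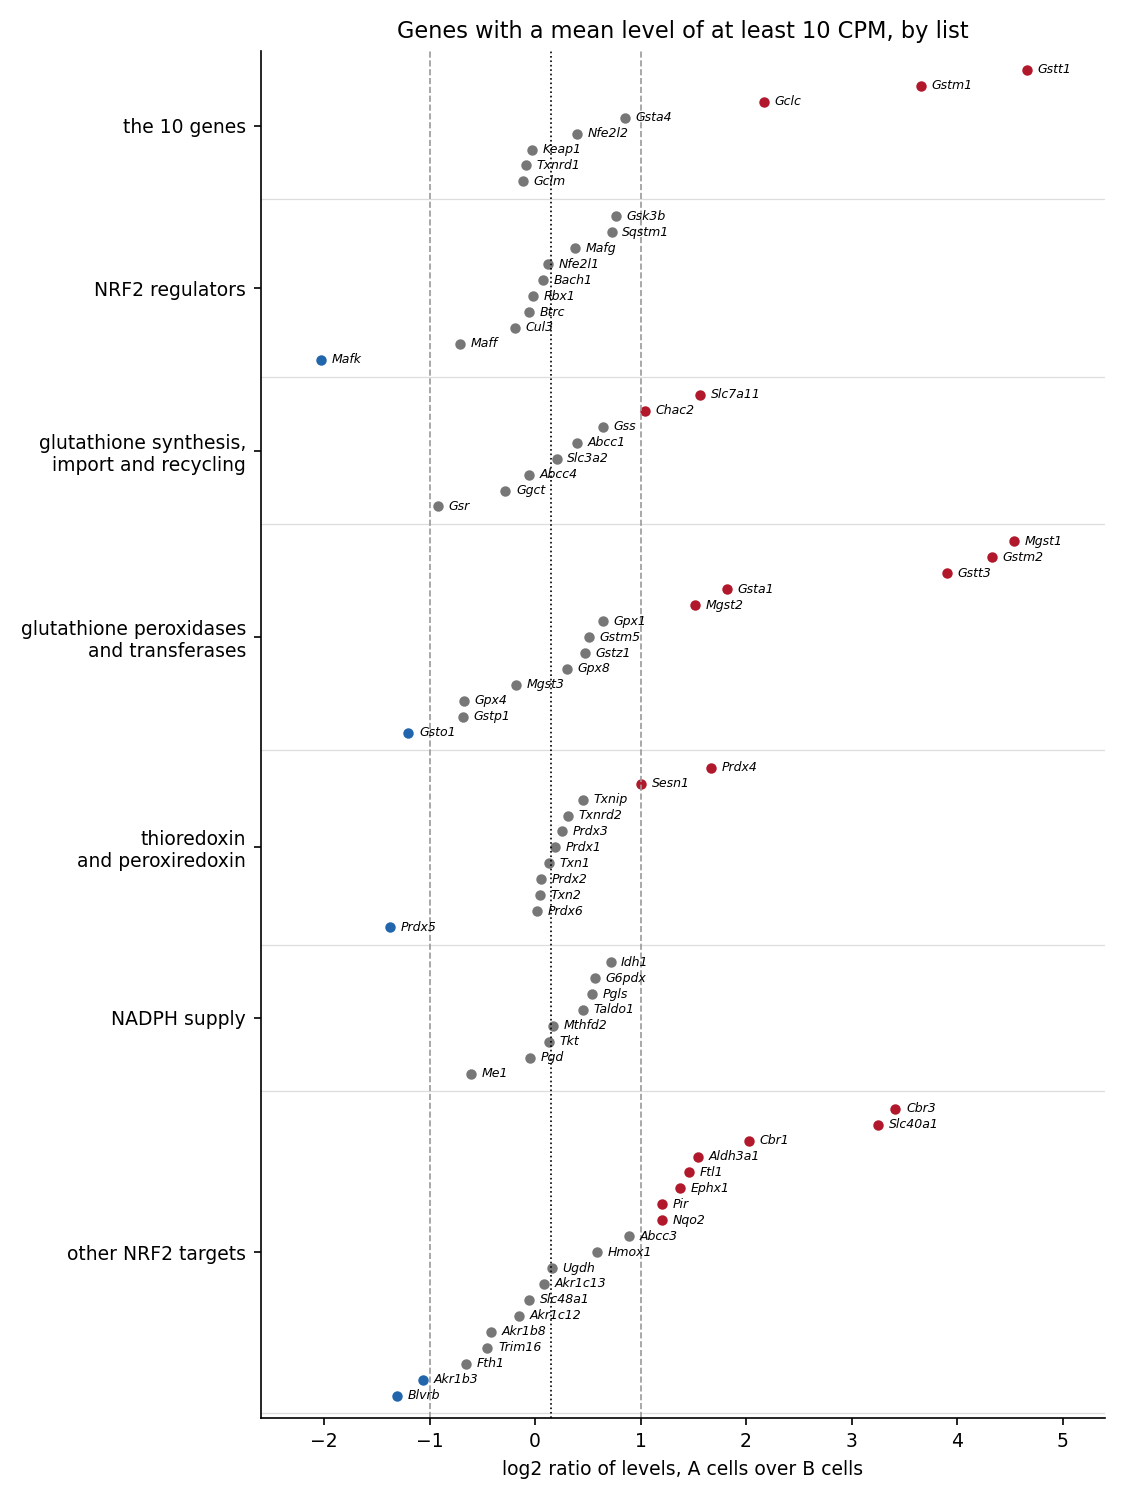
The log2 ratio of the level in A cells over that in B cells (horizontal axis) for each gene with a mean level of at least 10 CPM, 1 gene a line, grouped by list; red is at least 2-fold higher in A, blue at least 2-fold higher in B. Dashed lines mark 2-fold and the dotted line the median of all 8240 genes (0.16). The genes farthest to the right are glutathione transferases, Cbr3 and Slc40a1. Gstt1, Mgst1, Gstm2, Gstt3 and Cbr3 passed the level filter only through A cells, so nothing is read from their place.

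Of the regulators of NRF2, 0 of 10 were at least 2-fold higher in A and 1 in B, with a median log2 ratio of 0.03. Rbx1, a subunit of the ubiquitin ligase that KEAP1 recruits, stood at 413 CPM in A cells and 419 in B cells. Gsk3b, a kinase that marks NRF2 for another route of degradation, stood at 230 and 135 CPM, and Sqstm1, an autophagy receptor that binds KEAP1, at 176 and 106 CPM, both higher in A by less than 2-fold. The gene past 2-fold was Mafk, a small MAF partner of NRF2, at 4.92 CPM in A and 20.0 CPM in B.

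In glutathione synthesis, import and recycling, 2 of 8 genes were at least 2-fold higher in A and 0 in B, with a median log2 ratio of 0.30. Slc7a11, the cystine importer that supplies cysteine, stood at 28.0 CPM in A and 9.47 CPM in B. Chac2, which breaks glutathione down, stood at 56.9 and 27.6 CPM and fell below 2-fold once ratios were centred. The most abundant genes of the list were within 2-fold: Gsr, glutathione reductase, at 152 and 286 CPM, Slc3a2, the partner chain of SLC7A11, at 86.7 and 75.3 CPM, and Gss, glutathione synthetase, at 89.5 and 57.1 CPM. Slc7a11 RNA, like that of Gclc, was thus higher in A cells, while Gsr stood higher in B cells and passed 2-fold in that direction after centring, at -1.07.

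Among glutathione peroxidases and transferases, 5 of 13 genes were at least 2-fold higher in A and 1 in B, with a median log2 ratio of 0.51. Mgst1, a microsomal transferase, stood at 35.8 CPM in A and 1.53 in B. Gstm2, of the mu class, stood at 36.3 and 1.80 CPM, and Gstt3, of the theta class, at 28.2 and 1.88 CPM. These 3, like Gstt1 and Gstm1, were at least 10-fold higher in A. All of them but Gstm1 passed the level filter only through their level in A. Gsta1 stood at 79.5 and 22.5 CPM and Mgst2 at 88.8 and 31.1 CPM. Gsto1, of the omega class, went the other way, at 251 CPM in A and 576 in B. The abundant Gpx4, which reduces lipid peroxides, stood at 658 and 1049 CPM, and Mgst3 at 276 and 313 CPM.

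In the thioredoxin and peroxiredoxin list, 2 of 11 genes were at least 2-fold higher in A and 1 in B, with a median log2 ratio of 0.19. Prdx4, the peroxiredoxin of the endoplasmic reticulum, stood at 74.6 CPM in A and 23.5 in B. Sesn1, a stress-induced sestrin, stood at 17.9 and 8.89 CPM and fell below 2-fold once centred. Prdx5, found in mitochondria and peroxisomes, stood at 89.1 CPM in A and 231 in B. The abundant members Prdx1 (1272 and 1119 CPM), Txn1 (815 and 745 CPM) and Prdx2 (389 and 373 CPM) were close in both groups.

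The enzymes that supply NADPH, the electron donor of these reductases, had 0 of 8 genes past 2-fold in either direction and a median log2 ratio of 0.31. Tkt and Taldo1, of the pentose phosphate pathway, stood at 231 and 211 CPM and at 177 and 129 CPM. Me1, the cytosolic malic enzyme, stood at 123 CPM in A and 187 in B.

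Among 19 further genes known as NRF2 targets, 8 were at least 2-fold higher in A and 2 in B, with a median log2 ratio of 0.58. Cbr3 and Cbr1, carbonyl reductases, stood at 25.1 and 2.35 CPM and at 95.6 and 23.5 CPM. Slc40a1, the iron exporter ferroportin, stood at 116 and 12.1 CPM. Ferritin light chain, Ftl1, stood at 7014 and 2552 CPM, while the heavy chain, Fth1, stood at 2826 and 4445 CPM, within 2-fold and higher in B. The light and heavy chains of ferritin thus lay on opposite sides, though Ftl1 has near-identical copies and its level is uncertain. Aldh3a1, an aldehyde dehydrogenase, stood at 50.4 and 17.3 CPM, Pir at 49.1 and 21.3 CPM, Nqo2, a quinone reductase related to NQO1, at 23.1 and 10.0 CPM, and Ephx1, an epoxide hydrolase, at 14.5 and 5.61 CPM. Higher in B were Blvrb, biliverdin reductase B, at 54.5 and 135 CPM, and Akr1b3, aldose reductase, at 106 and 221 CPM. Ugdh, which feeds glucuronidation, stood at 293 and 262 CPM.

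Several of the 10 genes lie beside relatives on the chromosome, by the gene order of RefSeq's GRCm38.p6 annotation. Gclc and Gsta4 share a stretch of chromosome 9, in the order Gclc, Elovl5, Fbxo9, Cilk1, Gsta4, Gsta1 and Gm3776 among the genes that passed the level filter. All of these but Fbxo9 and Gsta4 were at least 2-fold higher in A, with log2 ratios of 2.17 for Gclc, 1.12 for Elovl5, 1.15 for Cilk1, 1.82 for Gsta1 and 2.34 for Gm3776. Fbxo9 stood at 0.07 and Gsta4 at 0.85. On chromosome 10, the nearest neighbours of Gstt1 were Gstt3 (3.91), Ddt (2.13) and Mif (0.77), and Chchd10 (1.30) lay close by. On chromosome 3, Gstm1 lay beside Gstm2 (4.33) and Gstm5 (0.51), with Ampd2 (0.49) on its other side. Of the 10 nearest such neighbours, 5 of Gsta4, 4 of Gclc, 3 of Gstt1, 2 of Gstm1 and 2 of Nfe2l2 were at least 2-fold higher in A and 0 in B, beside 8.75% and 6.2% of all genes. The counts of Gsta4 and Gclc share Elovl5, Cilk1 and Gsta1, and that of Gsta4 includes Gclc. Gclm, Txnrd1 and Srxn1 each had 1 neighbour higher in A and 1 in B, and Keap1 and Nqo1 had 0 in either direction. Some neighbours, among them Gstt3, Gstm2 and Gm3776, passed the level filter only through A cells, so nothing is read from these counts. Gsta1 and Gm3776 are similar genes whose reads may be shared.

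Within A cells, the 10 genes also varied between states. The Epcam state was 1142 A cells with at least 2 UMIs of Epcam, S100g and Tm4sf20 together and at least 3 times those of Tnc, Acta2 and Ptchd4. The Tnc state was 2478 A cells defined the other way round, and 4196 A cells were in neither. These are ranges cut from a sum of UMIs and not cell types. Of 8393 genes that passed the level filter here, 2.86% were at least 2-fold higher in the Epcam state and 0.751% in the Tnc state. Of the 10 genes, 4 were at least 2-fold higher in the Epcam state and none in the Tnc state; Nqo1, 1 of the 4, passed the level filter only through the Epcam state, so nothing is read from the count. The median depth was 4507 UMIs in the Epcam state and 5155.5 in the Tnc state, with 3.55% and 3.10% mitochondrial UMIs, whose part was not tested.

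The 3 transferases and Nqo1 were the 4. Gstt1 stood at 130 CPM in the Epcam state (121 to 140) and 35.2 CPM in the Tnc state (32.1 to 38.4), 3.70-fold higher. Gsta4 stood at 560 CPM (541 to 580) and 208 CPM (201 to 216), 2.69-fold higher, and Gstm1 at 251 CPM (238 to 264) and 120 CPM (114 to 126), 2.09-fold higher. Gsta4, within 2-fold between A and B cells, thus passed 2-fold inside A. Nqo1 stood at 14.7 CPM (11.7 to 18.2) and 5.91 CPM (4.71 to 7.32). Gclc stood at 163 and 93.5 CPM and Nfe2l2 at 207 and 137 CPM, both below 2-fold. Gclm (279 and 236 CPM), Srxn1 (12.3 and 10.7 CPM), Keap1 (39.1 and 35.8 CPM) and Txnrd1 (171 and 191 CPM) differed least. Even in the Tnc state Gstt1, Gstm1 and Gclc stood above their levels in B cells.

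**Figure D3:**
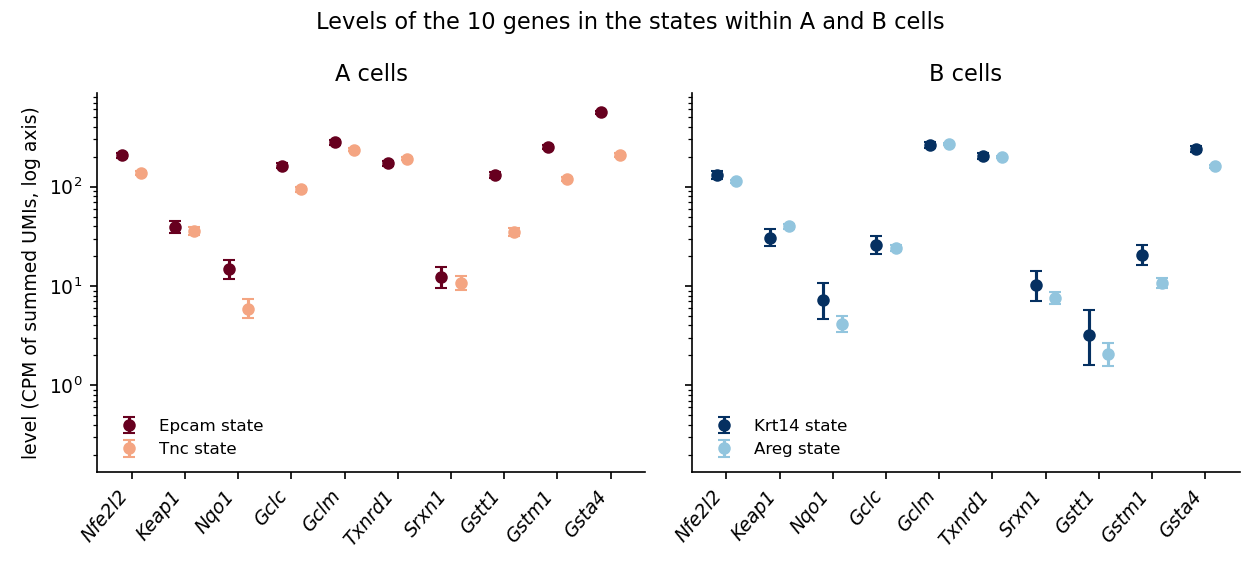
Level of each of the 10 genes (vertical axis, CPM of summed UMIs, log scale) in the Epcam and Tnc states of A cells (left) and the Krt14 and Areg states of B cells (right); bars are exact 95% Poisson intervals for 1 library. Gstt1, Gsta4, Gstm1 and Nqo1 are separated by more than 2-fold on the left, and none of the genes that passed the level filter is on the right.

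Within B cells none of the genes that passed the level filter reached 2-fold between states. The Krt14 state was 541 B cells with at least 2 UMIs of Krt14 and Sprr1a together and at least 3 times those of Areg, Btc and Cftr, and the Areg state was 4714 B cells defined the other way round. Of 7949 genes, 1.06% were at least 2-fold higher in the Krt14 state and 0.214% in the Areg state, and of the 10 genes 7 passed the level filter and 0 passed 2-fold. Gstm1 came nearest, at 20.6 CPM in the Krt14 state (16.1 to 26.0) and 10.8 CPM in the Areg state (9.63 to 12.1). Gsta4 stood at 241 CPM (224 to 257) and 160 CPM (156 to 165), and Nfe2l2 at 130 and 113 CPM. Keap1 leaned the other way, at 30.7 CPM (25.2 to 37.2) and 40.0 CPM (37.7 to 42.4). The transferases Gsta4 and Gstm1 were thus higher in the state with Krt14, as they were in the A state with Epcam; whether the folds differ was not tested. For Gclc (26.1 and 24.1 CPM), Gclm (263 and 266 CPM) and Txnrd1 (205 and 197 CPM) the intervals of the ratio span equality. In cells thinned to 3000 UMIs the log2 ratio of Gclc was 0.60, against 0.11 (-0.22 to 0.43) here. Nqo1 (7.25 and 4.12 CPM), Srxn1 (10.1 and 7.53 CPM) and Gstt1 (3.19 and 2.08 CPM) were under the filter.

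The ratio of variance to mean of thinned UMIs, a measure of unevenness from cell to cell that also grows with a gene's count, was highest for Gsta4 among the 10 genes. It was 1.60 in A cells and 1.75 in B cells, where random sampling of equal cells gives a value near 1. That was above 97.8% of the 3431 genes with a mean level of at least 50 CPM in A, and above 99.2% of them in B. Gclc (1.36), Gstm1 (1.25) and Gstt1 (1.22) followed in A. Keap1 was near even in both groups, at 1.00 in A and 0.991 in B.

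Co-expression was measured as Pearson's r over cells of log1p of the thinned UMIs, within A cells (7406) and within B cells (8827) apart, with no p-value because cells share 1 library. The 45 pairs of the 10 genes had a median r of 0.0137 in A and 0.00895 in B. Over all pairs of genes with a mean level of at least 50 CPM, the median was 2.99e-05 in A and 9.29e-05 in B. The 45 pairs include genes below that level, so nothing is read from the difference. All values were low, and in sparse counts a weak r is no finding. The 6 genes with a mean level over A and B cells of at least 50 CPM form 15 pairs. In A, 10 of the 15 were above the 95th percentile of all pairs of such genes (0.0251) and 9 above the 99th (0.0422). In B, 6 of the 15 were above the 95th percentile (0.0215) and 3 above the 99th (0.0337). Gstm1 and Gclc passed that filter only through A cells and stood at 12.4 and 24.8 CPM in B. The counts in A and in B are therefore not set against each other.

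The pairs with the highest r in A cells joined the transferases and Gclc. Gstm1 and Gsta4 had r = 0.165 in A and 0.029 in B. Gstt1 and Gsta4 had 0.119 in A and 0.006 in B, and Gstt1 and Gstm1 had 0.099 and 0.019. Gclc had 0.088 with Gsta4 and 0.083 with Gstm1 in A, and 0.038 and 0.027 in B. Gstt1 was found in only 0.510% of the thinned B cells, Gstm1 in 3.07% and Gclc in 7.05%. For pairs with these genes, r in A and r in B are therefore not set against each other. Within the Epcam and Tnc states r was 0.169 and 0.112 for Gstm1 and Gsta4, 0.105 and 0.096 for Gstt1 and Gsta4, and 0.074 and 0.048 for Gstt1 and Gstm1. The 2 subunits of glutamate-cysteine ligase, Gclc and Gclm, had only 0.051 in A and 0.014 in B, and Txnrd1 had at most 0.025 with any of the others in A. In B the highest pair was Nqo1 and Gsta4, with 0.085.

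**Figure D4:**
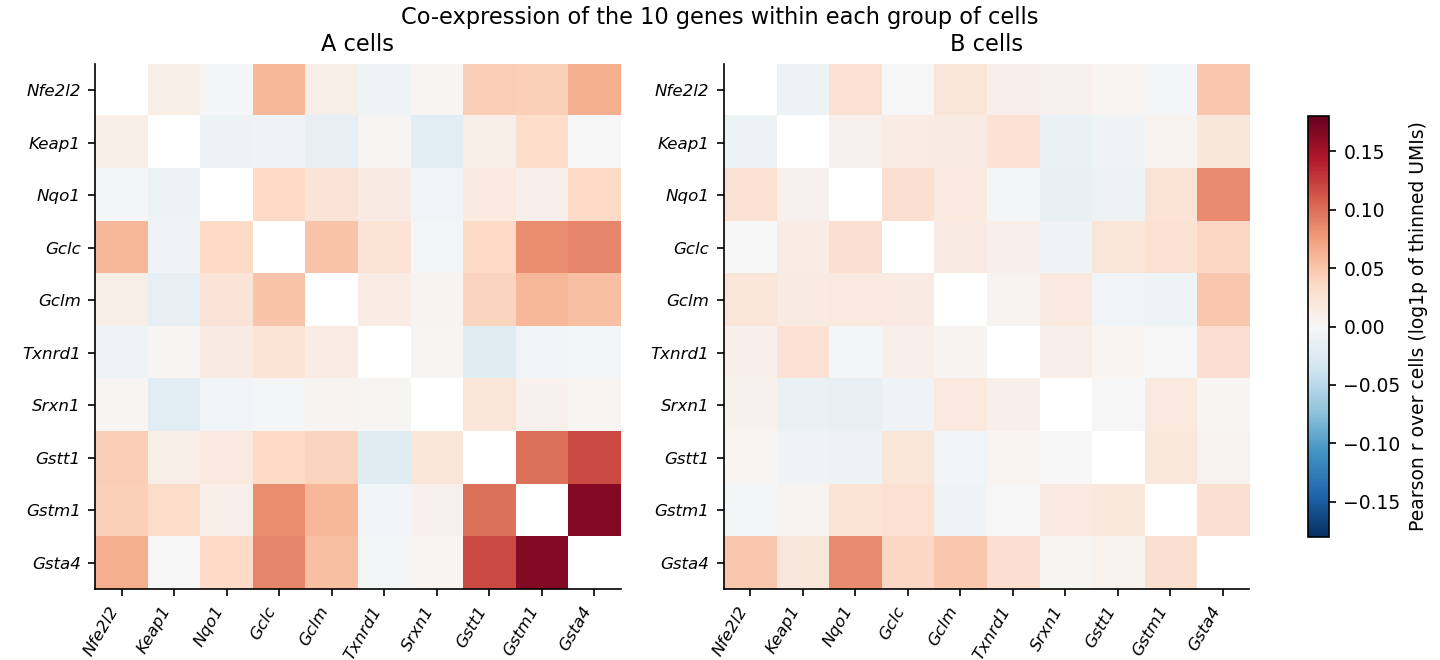
Pearson's r over cells for each pair of the 10 genes (colour scale; log1p of UMIs thinned to 3000 per cell) within 7406 A cells (left) and 8827 B cells (right) of 1 library; the diagonal is left blank. The darkest squares are Gstm1 with Gsta4 (0.165) in A and Nqo1 with Gsta4 (0.085) in B.

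The r of Gstt1 and Gstm1 within B cells depended on depth and on doublets. It was 0.140 in cells thinned to 5000 UMIs and 0.098 without thinning, against 0.019 at 3000 UMIs and 0.002 at 3000 UMIs without the marked doublets. The gene with the highest r with Gstt1 in B was Gpr15lg (0.124), followed by Gm5886 (0.103), which is abundant in A cells. Pooling A and B cells also raised r, to 0.194 for Gstt1 and Gstm1 and 0.172 for Gclc and Gstm1, genes whose levels differ between the groups.

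Sorting cells by their own Gsta4 UMIs shows the same pattern as counts. In A cells, Gstm1 stood at 37.0 UMIs per 100 cells (35.0 to 39.1) in the 3402 cells without a Gsta4 UMI and at 81.8 (75.5 to 88.5) in the 763 cells with 3 or more. Gstt1 stood at 13.2 and 33.0 per 100 cells, Gclc at 29.5 and 50.2, and Nfe2l2 at 44.1 and 62.4. Txnrd1 (56.2 and 57.3) and Keap1 (11.2 and 10.9) were level, and Gclm stood at 67.9 and 83.5. Nqo1 stood at 1.65 (1.24 to 2.14) and 3.67 (2.44 to 5.30). A cells rich in Gsta4 RNA were thus richer in the transferases, Gclc, Gclm, Nqo1 and Nfe2l2, though not in every gene of the system. In B cells, Nqo1 stood at 1.08 per 100 cells (0.828 to 1.37) in the 5953 cells without Gsta4 and 7.71 (5.13 to 11.1) in the 363 cells with 3 or more. Gclc stood at 7.07 and 12.7 and Gclm at 76.6 and 92.8 in the same B cells. Gstm1 stood there at 2.96 (2.54 to 3.43) and 5.23 (3.15 to 8.17), and Nfe2l2 at 34.8 (33.3 to 36.3) and 42.1 (35.7 to 49.4). For Gstm1 and Nfe2l2 in B the intervals overlapped.

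**Figure D5:**
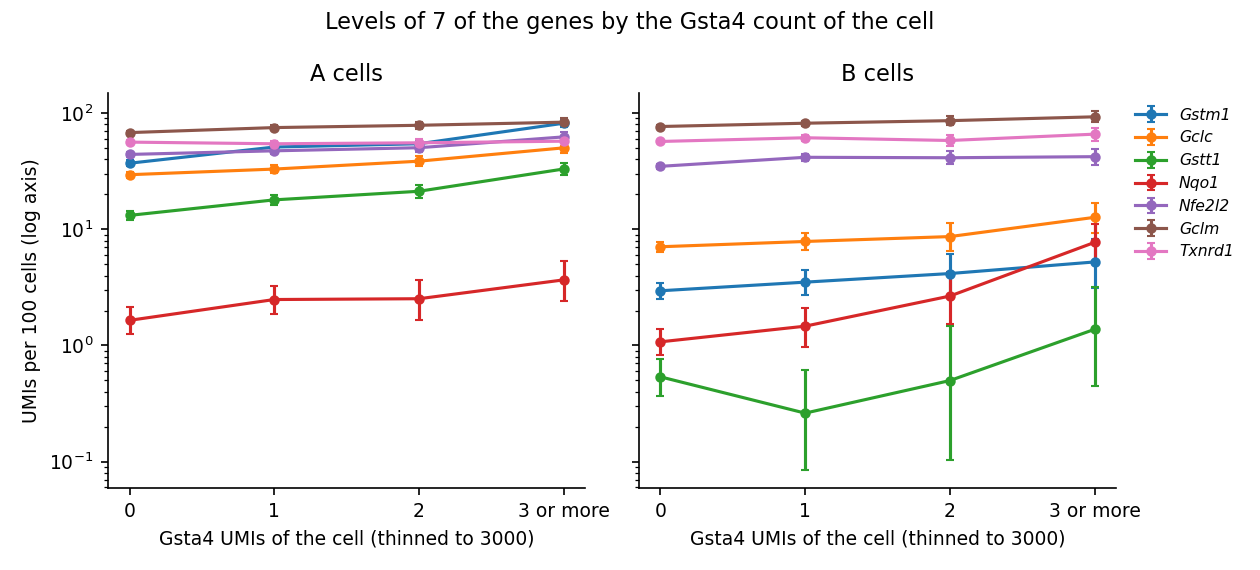
Mean UMIs per 100 cells (vertical axis, log scale) of 7 of the 10 genes in cells with 0, 1, 2 or 3 or more UMIs of Gsta4 (horizontal axis), each cell thinned to 3000 UMIs, in A cells (left) and B cells (right); bars are exact 95% Poisson intervals. From 0 to 3 or more Gsta4 UMIs, Gstm1 goes from 37.0 to 81.8 in A and from 2.96 to 5.23 in B. Nqo1 goes from 1.65 to 3.67 in A and from 1.08 to 7.71 in B, while Txnrd1 is level in A.

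Sorting by Nqo1 gave few cells. In the 131 B cells with an Nqo1 UMI, Gsta4 stood at 127 UMIs per 100 cells (109 to 148), against 49.6 (48.1 to 51.1) in the 8696 B cells without one. In the 159 A cells with an Nqo1 UMI, Gsta4 stood at 120 (104 to 138) against 96.5 (94.2 to 98.7), and Gclc at 56.6 (45.5 to 69.6) against 33.4 (32.1 to 34.8). Gclm stood at 91.2 (77.0 to 107) against 72.7 (70.8 to 74.7) in A. For Nfe2l2, Keap1, Txnrd1, Srxn1, Gstt1 and Gstm1 the intervals of the A cells with and without Nqo1 overlapped. In B cells with an Nqo1 UMI, Nfe2l2 stood at 50.4 (39.0 to 64.1) against 36.8 (35.6 to 38.1) without. Gclc stood there at 15.3 (9.33 to 23.6) against 7.46 (6.90 to 8.06). For Keap1, Gclm, Txnrd1, Srxn1, Gstt1 and Gstm1 the intervals in B overlapped.

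Outside the 10 genes, r was taken with the mean of the log1p counts of the 8 genes with a mean level of at least 10 CPM. Genes with a mean level of at least 50 CPM were ranked by the lower of the r in A and in B cells. The 5 highest were Gsta1 (0.250 in A and 0.140 in B), Fth1 (0.152 and 0.135), Lgals4 (0.269 and 0.130), Lgals2 (0.124 and 0.114) and Krt19 (0.106 and 0.156). Gsta1 is another alpha-class transferase, Fth1 is the ferritin heavy chain, LGALS4 and LGALS2 are galectins of epithelia, and KRT19 is a keratin of ductal cells. Lgals2 and Krt19 were higher in B cells, at 204 and 2768 CPM and at 618 and 1584 CPM, while the mean they were compared with is of 8 genes, of which none was 2-fold higher in B. In B cells their r with Gsta4 was 0.252 for Krt19 and 0.208 for Lgals2. Gsta4 by itself had r of 0.337 in A and 0.208 in B with Lgals4, and of 0.279 and 0.212 with Gsta1. None of the 5 was among the 5 genes with the highest r with Keap1, with Txnrd1 or with Gstt1, in A or in B cells. The ranking is thus by a mean and does not hold for each of the 8 genes. At the other end, ranked by the higher of the r in A and in B, the lowest gene was Lgals1 (-0.116 in A and -0.103 in B), another galectin.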

How the data were processed

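UMI counts per gene and barcode were deposited by the authors as a raw, unnormalised matrix of 1 library made with the 10x 3′ v4 chemistry, per the labels' protocols; the submitters' processing notes name Cell Ranger 8.0.1 and GRCm39. The annotation and any filter on barcodes are not given in the sources used here. The 10 genes, the gene lists and the marker genes were chosen with earlier results of these data known. Sums, CPM, exact Poisson and Clopper-Pearson 95% intervals and correlations were computed with numpy 2.4.6, scipy 1.17.1 and pandas 2.3.3 in Python 3.11.15, and the code was tested on simulated data. Ratios carry the exact interval of the conditional binomial. Named genes were the 10 genes, in each list the 3 most abundant and those past 2-fold, and the 5 with the highest r; neighbours, the top pairs with r in single genes and the genes used as background were chosen after their values were seen. Doublets were marked with Scrublet in scanpy 1.11.5 (778 barcodes, 3.64%, expected rate 0.08) and stayed in; the marker rule set aside 643 cells with markers of both groups, of which 55.5% were marked. Cells were thinned with a fixed seed. Alternatives changed the cell filter, the marker minimum, doublets, depth, scaling, the level filter and the fold; depth ranges, neighbours and the sort by Gsta4 were added after the data were seen. Intervals cover counting error alone.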

Additional observations from a re-analysis of the deposited data

Results flagged for a closer look

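The cells that were neither A nor B entered no comparison, and all 10 genes were detected in them above 0.133 CPM, the level that a count of 0 allows in the 22521427 UMIs of these 4609 cells. Their levels were 143 CPM for Nfe2l2, 39.3 for Keap1, 5.68 for Nqo1, 75.3 for Gclc, 257 for Gclm, 184 for Txnrd1, 9.95 for Srxn1, 34.3 for Gstt1, 94.0 for Gstm1 and 247 for Gsta4. The 817 barcodes removed by the cell filter held 931 UMIs of the 10 genes together, or 990 CPM, above the 3.19 CPM that a count of 0 allows there.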

How the results depend on the processing

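No paired analysis was possible because there is 1 library, and no replicate could be left out. Under the alternatives run, the log2 ratio between A and B changed sign for none of the 10 genes but Keap1, whose interval spans 0; 53 of 80 planned values stayed within the counting interval and 27 moved outside it. Over planned and added settings the log2 ratio ran from 3.72 to 6.10 for Gstt1, 3.19 to 4.10 for Gstm1, 1.99 to 2.25 for Gclc, 0.61 to 1.09 for Gsta4, 0.40 to 1.23 for Nqo1, 0.24 to 0.55 for Nfe2l2 and -0.18 to 0.13 for Keap1. Between 2 and 4 of the 10 genes were called higher in A (2 with a 50 CPM filter, which leaves out Gstt1; 4 at 1.5-fold, with Gsta4) and 0 in B. Genes called higher in A and in B numbered 193 and 182 of 3431 compared with a filter of 50 CPM. They numbered 4836 and 4626 of 22293 with no filter, and 1796 and 969 of 8240 at 1.5-fold. Of the lists, 5 genes were higher in A and 4 in B at 50 CPM, and 27 in A and 8 in B with no filter. At 1.5-fold, 23 list genes were higher in A and 11 in B. These counts change because fewer or more genes are compared or the fold is smaller. Nothing is read from the counts of the 10 genes or of the lists. The median r of the 45 pairs was 0.0240 at 5000 UMIs and 0.0225 unthinned in A, and 0.0138 unthinned in B; the cause was not tested. Of the shares of cells, 39 of 40 moved with depth. Depth limits Nqo1 and Srxn1, and Gstt1 in B cells.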
